A study of Mus musculus with 4 samples.

Results

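The 39 mouse Hox genes of the Hoxa, Hoxb, Hoxc and Hoxd clusters were examined for called Sox2 peaks. They were taken as every protein-coding gene of the mm10 genome whose symbol is Hoxa, Hoxb, Hoxc or Hoxd followed by a number, which gave 39 of the 21631 protein-coding genes on the autosomes and X. The Hoxa cluster held 11 genes in 106 kb (chr6:52155367-52260880). The Hoxb cluster, from Hoxb1 to Hoxb13, held 10 genes in 174 kb (chr11:96194316-96368254). The Hoxc cluster, from Hoxc4 to Hoxc13, held 9 genes in 116 kb (chr15:102921131-103036856), and the Hoxd cluster, from Hoxd1 to Hoxd13, held 9 genes in 96.9 kb (chr2:74668225-74765142). With 50 kb on either side of each, the 4 windows covered 892 kb.

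Hox genes encode homeodomain transcription factors that give cells their position along the body axis, and their order along each chromosome follows the order in which they are used from head to tail. Genes at the same place in different clusters form a paralogue group: low group numbers act anteriorly, high ones posteriorly and in limbs and genitalia. In mouse embryonic stem cells the clusters are known as large domains held silent by Polycomb complexes, while Sox2, an HMG-box factor that often binds beside Oct4, belongs to the factors that keep these cells pluripotent.

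The peaks come from ChIP-exo, in which an exonuclease trims the precipitated DNA up to the bound protein, so that a called peak is narrow. Each of 4 libraries was made from D3 mouse embryonic stem cells in regular culture, with 1 library per group. In the first, endogenous Sox2 was precipitated with an antibody against Sox2. The other 3 isolated Sox2 fused to the HaloTag, which binds covalently to a resin: Halo-Sox2, Halo-Sox2M (labelled M47G:F50:M51G, with no replacement given for F50) and Halo-Sox2D, which holds residues 1 to 120 of Sox2 and so keeps the DNA-binding HMG box. The labels do not say how much of each fusion the cells made, whether they kept their own Sox2, or whether the cells were 1 clone. Halo-Sox2D had the longest list, with 13833 peaks, before endogenous Sox2 (7153), Halo-Sox2 (6558) and Halo-Sox2M (1711), and the median width was 11 bp in each. Lists of such unequal length give different numbers of peaks anywhere, so each count below stands beside the number that its own list would give at uniform placement. The lists hold coordinates only, so the depth behind a peak and its height are unknown. With no replicate and no control library, nothing was tested between libraries, and the intervals given cover counting error only.

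Endogenous Sox2 had no peak inside any of the 4 clusters, and neither had Halo-Sox2M. Halo-Sox2 had 2 peaks there, 1 in Hoxc and 1 in Hoxd, and Halo-Sox2D had 7, of which 4 lay in Hoxa9 and Hoxa10. All 9 lay in the part of a cluster that holds the posterior genes of groups 9 to 13. Endogenous Sox2 had 4 peaks within 50 kb outside the Hoxa, Hoxb and Hoxc clusters, each with a Halo-Sox2D peak less than 1 kb away. These places are shown in the map of the clusters.

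**Figure D1:**
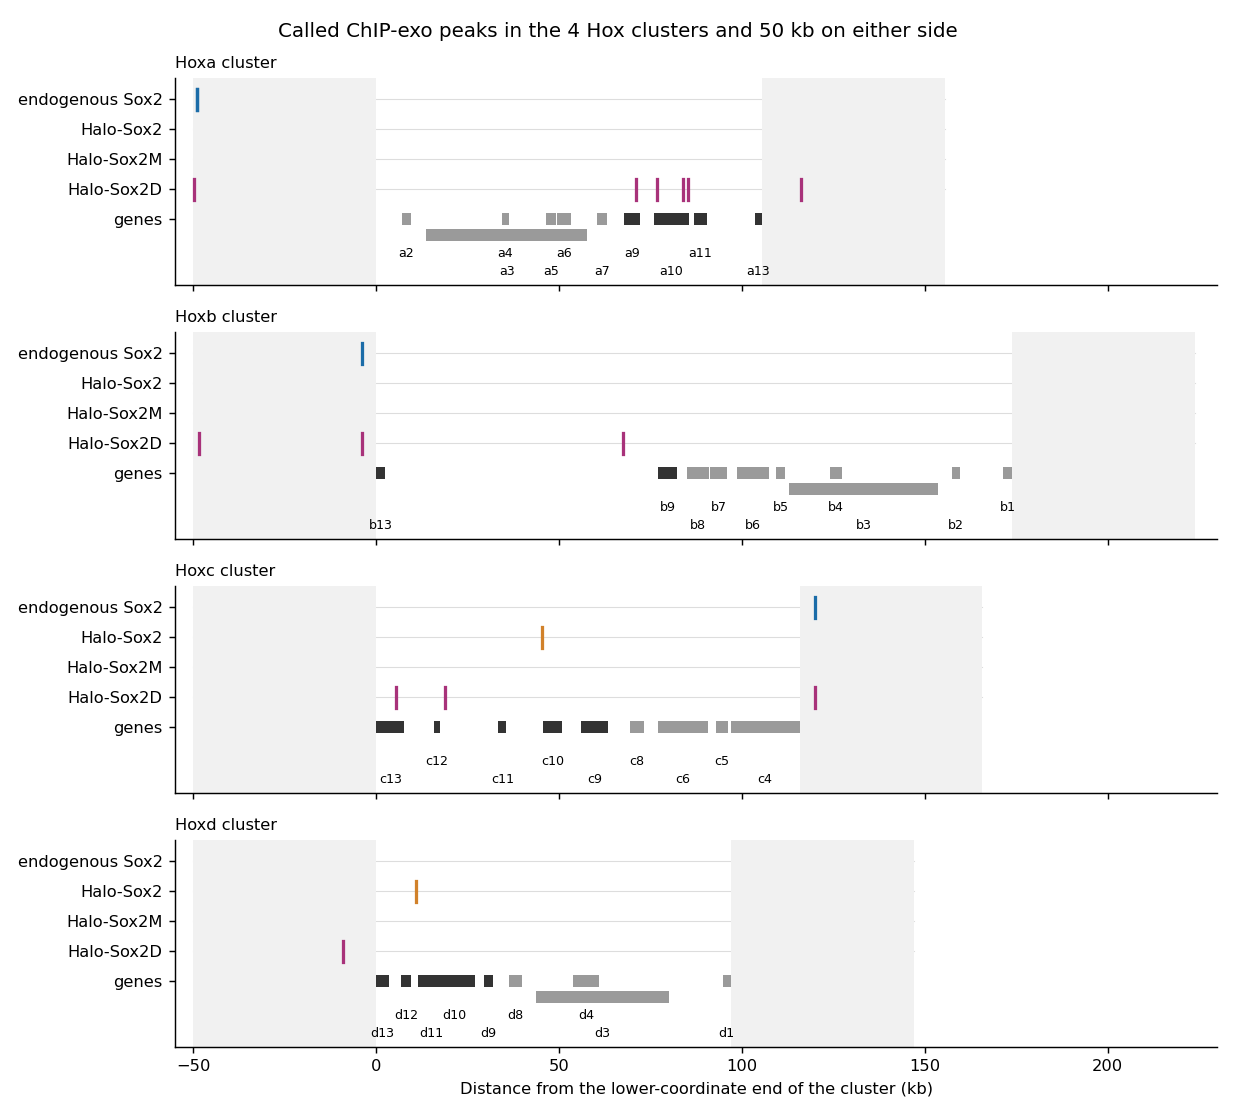
Called peaks (coloured ticks) of the 4 libraries along each Hox cluster, by distance in kb from the cluster's lower-coordinate end. Grey areas are the 50 kb on either side, dark boxes are genes of groups 9 to 13 and light boxes those of groups 1 to 8 (1 gene of Hoxa is not drawn). The 9 ticks inside clusters (7 of Halo-Sox2D, 2 of Halo-Sox2) all stand over or between dark boxes, and the endogenous ticks stand in the grey areas.

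The sequences that the nearest peaks point to were taken from RefSeq (GRCm38.p6, whose chromosomes have the coordinates of mm10). Its promoter table matched 22 of the 39 genes with 24 windows, each of 250 bases before and 50 after a start of transcription. Shown are the bases before the start of Hoxa10, the gene with most peaks, and of the lower-coordinate Hoxd11 start, the 1 Hox start of the table with a Halo-Sox2 peak within 2 kb. Capitals mark ACAAAG, the reverse complement of CTTTGT, and there is no capital where none of the searched letters occur.

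Hoxa10, chr6:52240855-52241104, minus strand: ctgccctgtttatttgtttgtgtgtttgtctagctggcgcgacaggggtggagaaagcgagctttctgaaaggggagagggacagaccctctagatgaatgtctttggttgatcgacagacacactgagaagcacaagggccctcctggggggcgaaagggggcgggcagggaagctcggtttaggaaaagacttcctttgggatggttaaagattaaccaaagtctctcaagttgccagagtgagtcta
Hoxd11, chr2:74679308-74679557, plus strand: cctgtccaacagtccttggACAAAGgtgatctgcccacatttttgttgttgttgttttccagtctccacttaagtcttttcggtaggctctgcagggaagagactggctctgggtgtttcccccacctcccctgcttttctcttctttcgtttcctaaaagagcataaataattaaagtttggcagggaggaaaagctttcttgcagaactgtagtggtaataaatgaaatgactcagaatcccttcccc

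CATTGT, the core of the known Sox motif, was in none of the 24 Hox windows on either strand, beside 10.5% of the 21045 windows of protein-coding genes. The octamer ATGCAAAT known for Oct4 was in none of the 24 either, beside 1.68%. CTTTGT, a related Sox core whose letters were searched only after the Hox sequences had been read, was in 6 windows (25%), those of Hoxa3, Hoxa11, Hoxb1, Hoxd3, Hoxd4 and Hoxd11, beside 16.8% of all windows. No match overlapped another. In Hoxd11 the match began 231 bases before the start. The Hox windows had a median GC content of 57.7% (39.7 to 81.0%), close to the 56.7% of all windows. No Hox window held a peak centre of any library. Over all windows, 0.565% held one of endogenous Sox2, 0.927% of Halo-Sox2, 0.318% of Halo-Sox2M and 6.0% of Halo-Sox2D. With 24 windows, shares as low as these were not detectable. The motif counts were not tested against all windows either, and 24 windows give few matches at any of the motif shares. They are therefore read neither as a lack nor as an excess. Since no Hox window held a peak centre, the motifs describe promoters and not peaks. Among the genes with no entry were Hoxa4, Hoxb2, Hoxb3, Hoxb5, Hoxb6, Hoxb7, Hoxb9, Hoxb13, Hoxc5, Hoxc6, Hoxc8, Hoxc9, Hoxc10, Hoxc11, Hoxc12 and Hoxc13.

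The clusters also hold miRNA genes, short RNAs that pair with messenger RNAs through a seed at bases 2 to 8. The 5p forms of the miR-196 and miR-10 families, which have genes in different clusters, are shown with the seed in capitals.

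miR-196a-5p (Mir196a-1 in Hoxb, Mir196a-2 in Hoxc): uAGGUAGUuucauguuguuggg
miR-196b-5p (Mir196b in Hoxa): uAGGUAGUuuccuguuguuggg
miR-10a-5p (Mir10a in Hoxb): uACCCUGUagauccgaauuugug
miR-10b-5p (Mir10b in Hoxd): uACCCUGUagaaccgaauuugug

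The miR-196 forms share the seed AGGUAGU and the miR-10 forms the seed ACCCUGU. miR-196 is known to repress Hoxb8. A Halo-Sox2D peak lay 1.93 kb from Mir196b and another 3.42 kb from Mir196a-1, and a Halo-Sox2 peak lay 6.82 kb from Mir196a-2. The nearest peak to Mir10a was 55.4 kb away (Halo-Sox2D) and to Mir10b 47 kb away (Halo-Sox2). Mir615, in Hoxc, had its nearest peak, of endogenous Sox2, at 25.6 kb. All of these are peaks of the Hox windows described below, so they are not further events. The share of all miRNA genes with a peak that near was not counted, so the distances are a description.

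Inside the Hoxa cluster the 4 Halo-Sox2D peaks fell in 2 neighbouring genes. Hoxa9, known for its role in blood stem cells, held 1 (chr6:52226257-52226272), 1.11 kb downstream of its start. Hoxa10, which patterns the lumbar spine and the uterus, held 3. One (chr6:52240486-52240487) lay 0.367 kb downstream of its higher-coordinate start and one (chr6:52239286-52239295) 1.56 kb downstream of it. The third (chr6:52232091-52232103) lay 2.84 kb downstream of the lower-coordinate Hoxa10 start and also inside the long noncoding RNA gene Gm52902. Hoxa11, which shapes the forearm with Hoxd11, had no peak in its body and 2 of these within 5 kb, the nearer at 1.62 kb. No other library had a peak in the Hoxa cluster. The gene table gives no exons, so exons, introns and UTRs were not told apart.

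In Hoxb the 1 Halo-Sox2D peak inside the cluster (chr11:96261734-96261751) lay in the noncoding gene Gm53, in the long gap between Hoxb13 and Hoxb9 and 9.59 kb from Hoxb9. In Hoxc, Hoxc13, a gene of hair and nail formation, held 1 Halo-Sox2D peak (chr15:102926546-102926554), and a second (chr15:102939778-102939787) lay 1.17 kb from Hoxc12 and 4.28 kb from Hotair, a noncoding RNA gene of the cluster. The Halo-Sox2 peak of Hoxc (chr15:102966526-102966542) lay 0.262 kb below Hoxc10, which acts in the lumbar region and hindlimb. That of Hoxd (chr2:74679072-74679077) lay 0.483 kb before the lower-coordinate start of Hoxd11, and 1.37 kb from Hoxd12, a digit gene. The nearest Halo-Sox2D peak to Hoxd11 was 20.5 kb away and the nearest to Hoxc10 27.0 kb, so neither Halo-Sox2 peak had one beside it.

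Counted over the 4 libraries, 10 of the 39 genes (25.6%) had a peak in the body or within 5 kb, beside 39.4% of the protein-coding genes: Hoxa9, Hoxa10, Hoxa11, Hoxb13, Hoxc4, Hoxc10, Hoxc12, Hoxc13, Hoxd11 and Hoxd12. They are 9 of the 16 genes of groups 9 to 13 (56.2%) and 1 of the 23 genes of groups 1 to 8 (4.35%), that one being Hoxc4, so the shares lay on either side of the 39.4% of all genes. Neighbours share peaks, so these genes are not independent. The part of the clusters from the first to the last gene of groups 9 to 13 made up 43.8% of their length (215 kb of 492 kb) and held 9 of the 9 peaks inside clusters. It was noticed after the positions had been seen, so it is a description. Among the 29 genes with no peak that near were Hoxa2 to Hoxa7, Hoxa13, Hoxb1 to Hoxb9, Hoxc5, Hoxc6, Hoxc8, Hoxc9, Hoxc11, Hoxd1, Hoxd3, Hoxd4, Hoxd8, Hoxd9, Hoxd10 and Hoxd13. Hoxb1, an anterior gene of the hindbrain, was the 1 gene with no peak of any library within 100 kb.

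Outside the clusters, endogenous Sox2 peaks came in the company of Halo-Sox2D. Below Hoxb13, a tail and prostate gene, an endogenous peak (chr11:96190344-96190357) and a Halo-Sox2D peak (chr11:96190429-96190430) had centres 79 bp apart, 3.97 and 3.89 kb from the gene. Beyond Hoxc4, in the noncoding gene Gm30528, the endogenous (chr15:103040632-103040640) and Halo-Sox2D (chr15:103041235-103041250) centres were 0.607 kb apart, at 3.78 and 4.39 kb from Hoxc4. In Halr1, a noncoding gene beside the Hoxa cluster, 2 endogenous peaks (chr6:52106294-52106311 and chr6:52106354-52106369) lay 59 bp apart and 0.829 and 0.888 kb from a Halo-Sox2D peak (chr6:52105468-52105479), about 49 kb from the end of the cluster. Between 50 and 100 kb from that end, 3 further endogenous peaks stood 0.3 to 0.399 kb from a Halo-Sox2D peak and 2.72 to 2.82 kb from a Halo-Sox2 peak.

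All 7 endogenous peaks within 100 kb of a cluster thus had a Halo-Sox2D centre within 1 kb, at 4 separate Halo-Sox2D peaks. Over the autosomes and X, 38.8% of the 6810 endogenous peaks had one that near. This depended on the distance allowed. The endogenous peaks in Halr1 (0.829 and 0.888 kb) and beyond Hoxc4 (0.607 kb) had no Halo-Sox2D centre within 500 bp. Over the autosomes and X, 36.2% had one within 500 bp. None of the 7 had a Halo-Sox2 or Halo-Sox2M centre within 1 kb, beside 34.1% and 7.14% over the genome. Since the 7 stand at 4 separate places, they are too few to show a lack of these or an excess of Halo-Sox2D. No Hox peak of one library overlapped a peak of another (0 of 19 places), and over the autosomes and X 5.11% of 25965 places were held by more than 1 library through overlap, a share too low for 19 places to show a lack. The 19 peaks of the windows formed 17 places when centres within 500 bp were joined. Of these, 1 (5.88%), the one below Hoxb13, held more than 1 library, beside 12.8% of 19463 places on the autosomes and X. At 1000 bp it was 3 of 15 (20%), beside 13.9%, so the order against the genome turned with the joining distance.

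**Figure D2:**
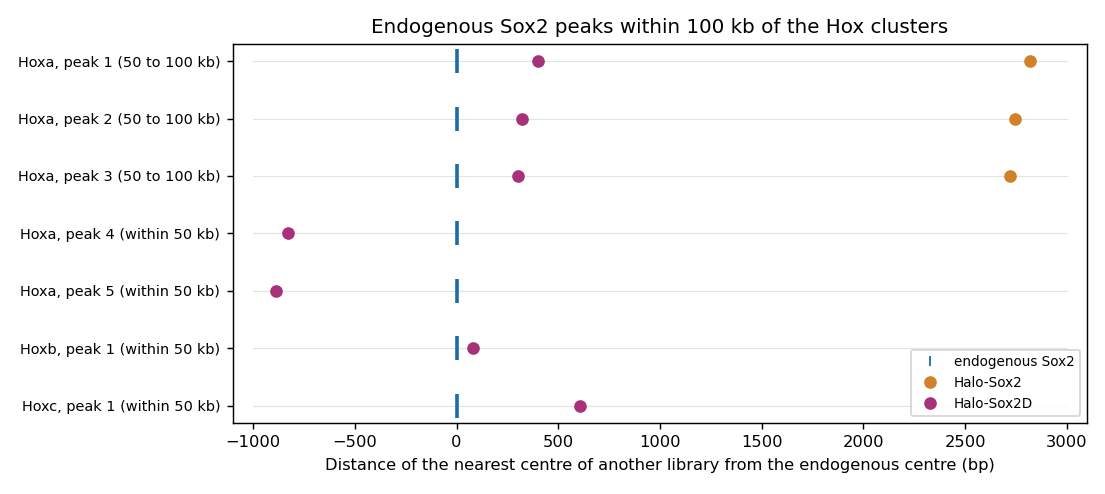
For each endogenous Sox2 peak within 100 kb of a Hox cluster (blue bar at 0), the nearest centre of Halo-Sox2D and of Halo-Sox2 where it falls inside the plotted range; the x axis is the distance in bp along the chromosome. Halo-Sox2D points lie within 1000 bp in every line and Halo-Sox2 points, from 2.72 to 2.82 kb, appear only in the lines of the 3 peaks farthest from the Hoxa cluster.

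The remaining flank peaks were all of Halo-Sox2D, and are named here after their positions were seen. One (chr6:52271031-52271041) lay 10.2 kb from Hoxa13 and 3.43 kb from Hottip, a noncoding RNA gene at the posterior end of Hoxa. Another (chr11:96145762-96145774) lay in Ttll6, 48.5 kb from Hoxb13. The last (chr2:74659042-74659059) lay in Evx2, the even-skipped gene next to Hoxd13, 9.17 kb from it.

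Against uniform placement, Halo-Sox2D had more peaks in the Hox windows than its density gives. Its density was 5.18 peaks per Mb, which gives 4.62 peaks in the 892 kb, and 13 were found, a ratio of 2.82 (exact Poisson 95% interval 1.5 to 4.82). The list is clumped. At uniform placement a window of the Hoxa length holds 0.546 Halo-Sox2D peaks on average, and 3.07% of such windows held 4 or more. The share of windows with 4 or more at uniform placement was not computed. Poisson intervals take peaks as independent, so those given here are too narrow. The 892 kb as a whole were not compared with other places of the genome. The clusters alone held 7 against 2.55 (2.75, 1.11 to 5.66) and the flanks 6 against 2.07 (2.9, 1.06 to 6.31). When the density was taken within 50 kb of protein-coding genes, where Halo-Sox2D peaks are denser, the whole windows still held more than the 6.39 that gives (2.04, 1.08 to 3.48). The clusters alone (1.99, 0.799 to 4.09) and the flanks alone (2.1, 0.769 to 4.56) then had intervals that include a ratio of 1.

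Endogenous Sox2, at 2.61 peaks per Mb, had 0 peaks in the clusters against 1.28, and a count of 0 allows up to 3. A lack of endogenous peaks inside the clusters was therefore not detectable at this number of peaks. Its 4 flank peaks stood against 1.04 (3.84, 1.05 to 9.82), but the 2 peaks in Halr1 are 59 bp apart. With peaks within 500 bp joined, 3 stood against 0.695, and the interval (0.89 to 12.6) included 1. Clusters and flanks together gave 4 against 2.33 (1.72, 0.469 to 4.4).

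Halo-Sox2, at 2.37 peaks per Mb, had 2 peaks in the clusters against 1.16 (1.72, 0.208 to 6.21) and 0 in the flanks against 0.946. Halo-Sox2M, at 0.539 peaks per Mb, had 0 in the clusters and flanks against 0.481, a number at which a lack was not detectable. For both, the counts were within counting error of uniform placement.

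**Figure D3:**
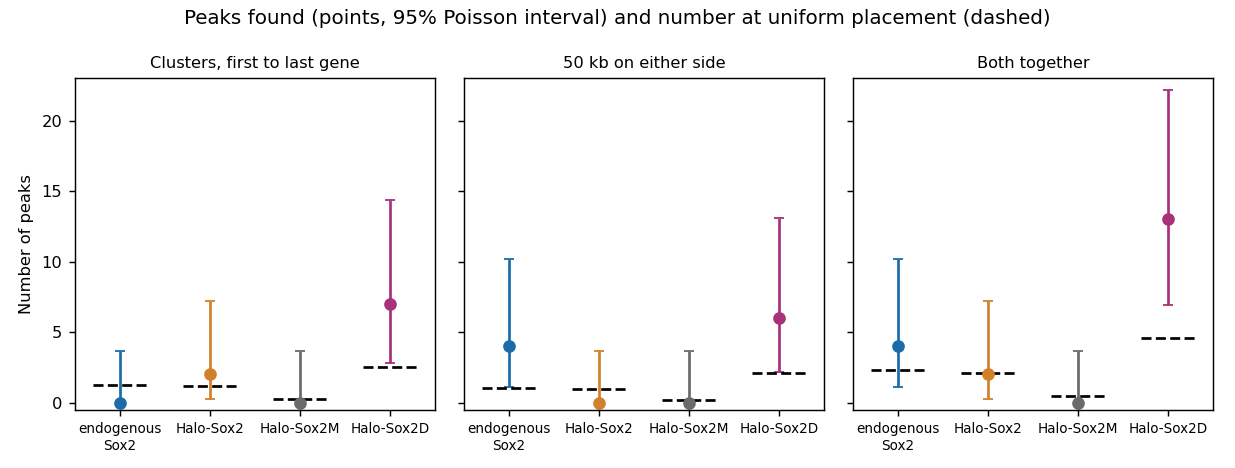
Number of peaks found in the 4 Hox clusters, in the 50 kb on either side, and in both (points; bars are exact 95% Poisson intervals that cover counting error only), with the number at uniform placement as a dashed line. The Halo-Sox2D interval stands above its dashed line in each panel and the endogenous Sox2 interval in the middle panel only.

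The 4 clusters did not share the Halo-Sox2D peaks evenly. Hoxa held 4 against 0.546 (7.33, 2.0 to 18.8), Hoxc 2 against 0.599 (3.34, 0.404 to 12.1), Hoxb 1 against 0.9 and Hoxd 0 against 0.502. Of windows of the length of Hoxa tiled over the autosomes and X, 3.07% held 4 or more Halo-Sox2D peaks, and of those of the length of Hoxc, 14.0% held 2 or more. Hoxa stands out as the highest of 4 clusters, and a difference between the clusters was not tested. With windows of the mean cluster length (123 kb), 30.7% held a Halo-Sox2D peak, beside 3 of the 4 clusters; 18.5% held one of Halo-Sox2, beside 2 of 4; 16.4% one of endogenous Sox2, beside 0 of 4; and 3.31% one of Halo-Sox2M, beside 0 of 4. Of the 4 clusters, Hoxd lay in the widest stretch without an endogenous peak, 1120 kb. Stretches at least that long made up 59.6% of the chromosomes. For the others the stretch was 329 kb (Hoxa), 389 kb (Hoxb) and 559 kb (Hoxc), so none was rare for that list.

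Gene by gene, the share of Hox genes with a peak depended on the window. Hox genes are short and share their surroundings: their median length was 3.74 kb, beside 17.3 kb for all protein-coding genes. Halo-Sox2D had a peak in the body of 3 Hox genes (7.69%), beside 20.6% of protein-coding genes, and in the body or within 5 kb of 7 (17.9%), beside 30.7%. Within 20 kb it was 16 of 39, beside 43.9%. Within 50 kb it was 32 (82.1%), beside 58.4%, and within 100 kb 37, beside 70.0%. The Hox share thus went from below to above that of all genes as the window grew. Those 32 genes are near the same 13 peaks, so they are not 32 separate events: 10 were in Hoxa, 7 in Hoxb, 9 in Hoxc and 6 in Hoxd.

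For endogenous Sox2, 0 Hox genes had a peak in the body, beside 7.5% of protein-coding genes, 2 within 5 kb (Hoxb13 and Hoxc4), beside 10.5%, and 2 within 20 kb, beside 17.1%. Within 50 kb there were 6 (15.4%), beside 27.7%, and within 100 kb 17, beside 41.5%. Hoxc had 4 of the 6, all near the peak beyond Hoxc4. The endogenous share was below that of all genes in each window but the widest. The Wilson 95% interval of the Hox share still included that of all genes for the body (0.0 to 8.97%), 5 kb (1.42 to 16.9%) and 50 kb (7.25 to 29.7%). At 20 kb (1.42 to 16.9%) it ended just below the 17.1%. Neighbouring genes share peaks, so these intervals are too narrow, and a difference was not tested.

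For Halo-Sox2 the numbers were 0 in the body, beside 9.15%, 3 within 5 kb (Hoxc10, Hoxd11 and Hoxd12), beside 13.2%, and 8 within 20 kb, beside 20.7%. Within 50 kb there were 16 (41.0%), 8 in Hoxc and 8 in Hoxd and all near 1 peak in each, beside 32.7%, and within 100 kb 21, beside 46.8%. Halo-Sox2M had a peak near no Hox gene at any window, beside 1.33, 2.18, 3.68, 6.44 and 10.0% of protein-coding genes for the body and for 5, 20, 50 and 100 kb.

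**Figure D4:**
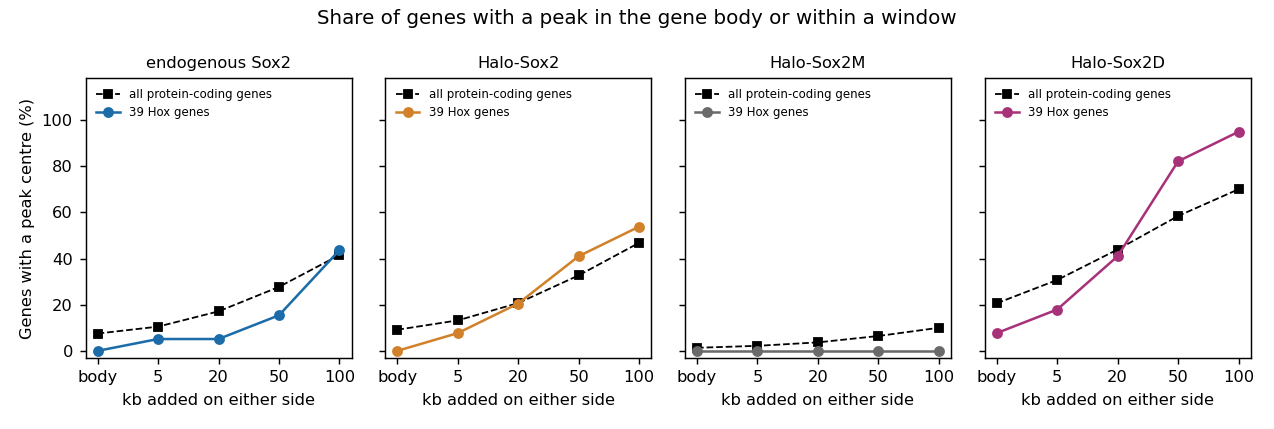
Share of the 39 Hox genes (circles) and of all protein-coding genes (squares) with a peak centre in the gene body or within 5, 20, 50 or 100 kb of it, in percent, for each library. In the Halo-Sox2D panel the Hox line runs below the other up to 20 kb and above it from 50 kb, and in the Halo-Sox2M panel it stays at 0.

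Windows of one length, 50 kb either side of a gene's midpoint, were added after the data were seen. They held a Halo-Sox2D peak for 30 Hox genes (76.9%), beside 49.8% of protein-coding genes, and an endogenous one for 5 (12.8%), beside 21.3%. Halo-Sox2 had 15 (38.5%), beside 25.7%, and Halo-Sox2M 0, beside 4.98%.

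Genes that work with or on the Hox clusters were counted in the same way, within 50 kb. A peak given at a gene may thus lie up to 50 kb outside it. Of 9 genes for the TALE homeodomain cofactors that bind DNA with Hox proteins, 5 had an endogenous peak, beside 27.7% of all protein-coding genes, 5 a Halo-Sox2 peak, beside 32.7%, 1 a Halo-Sox2M peak, beside 6.44%, and 8 a Halo-Sox2D peak, beside 58.4%. The medians per gene were 1.0, 1.0, 0.0 and 2.0 peaks, beside 0.0, 0.0, 0.0 and 1.0 over all protein-coding genes. Most peaks lay at Meis2 (3 endogenous, 1 Halo-Sox2 and 3 Halo-Sox2D), Pbx3 (3, 1 and 2), Pknox2 (0, 1 and 4) and Meis1 (2, 0 and 1, with 1 of Halo-Sox2M). The window grows with the length of the gene, for which these counts were not adjusted.

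The next list held 9 relatives of the Hox genes, namely ParaHox genes, Evx1, Evx2 and Mnx1. Of these, 9 had a Halo-Sox2D peak (all genes 58.4%), 4 an endogenous (27.7%), 3 a Halo-Sox2 (32.7%) and 0 a Halo-Sox2M peak (6.44%). The medians in that order were 1.0, 0.0, 0.0 and 0.0. Gsx1, a gene of neural progenitors, had 2 endogenous, 4 Halo-Sox2 and 3 Halo-Sox2D peaks. Cdx1, a direct activator of Hox genes, had 1, 0 and 4. Gsx2 had 1 of each of these 3, Cdx4 had 1 endogenous and 1 Halo-Sox2D peak, and Evx1, beside Hoxa13, had 2 of Halo-Sox2D. The peak in Evx2 counts here and in the Hoxd flank. So do a Halo-Sox2D peak of the Hoxa flank, 42.5 kb from Evx1, and the Halo-Sox2 peak of Hoxd, 17.6 kb from Evx2. Cdx2 and Pdx1 lie close together and share a Halo-Sox2D peak, so the 9 genes are not 9 separate events.

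Of 16 Polycomb genes, which hold Hox clusters silent, 9 had an endogenous (all genes 27.7%), 10 a Halo-Sox2 (32.7%), 2 a Halo-Sox2M (6.44%) and 13 a Halo-Sox2D peak (58.4%), with medians of 1.0, 1.0, 0.0 and 2.5. Most lay at Jarid2, Mtf2, Phc1, Cbx7 and Rnf2, with 15, 8, 7, 2 and 5 endogenous and 7, 5, 3, 8 and 4 Halo-Sox2D peaks. Within 5 kb these genes had 8, 8, 6, 1 and 0 endogenous and 5, 5, 2, 4 and 0 Halo-Sox2D peaks. Of 7 Trithorax and looping genes, which oppose Polycomb or set domain borders, 1 had an endogenous (all genes 27.7%), 2 a Halo-Sox2 (32.7%), 0 a Halo-Sox2M (6.44%) and 6 a Halo-Sox2D peak (58.4%), with medians of 0.0, 0.0, 0.0 and 3.0. The Halo-Sox2D numbers were 5 at Kdm6b and at Kmt2b, 3 at Ctcf and at Kmt2a and 1 at Rad21, which had the 2 endogenous peaks of the list. Within 5 kb the Halo-Sox2D numbers were 4, 1, 0, 2 and 0 in that order of genes.

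Of 10 genes of retinoic acid and trunk signals, which set Hox expression in the embryo and include enzymes that make and that degrade retinoic acid, 5 had an endogenous (all genes 27.7%), 3 a Halo-Sox2 (32.7%), 0 a Halo-Sox2M (6.44%) and 8 a Halo-Sox2D peak (58.4%), with medians of 0.5, 0.0, 0.0 and 3.0. Rara and Rarg, both retinoic acid receptors, had 3 endogenous peaks each, with 7 and 5 of Halo-Sox2D. Crabp2 (1 and 5), Fgf8 (0 and 5) and Gdf11 (0 and 4) followed. Of the 18 neighbours of the clusters found in the gene table (20 listed), 6, 8, 1 and 15 had a peak in the same order of libraries, beside 27.7, 32.7, 6.44 and 58.4% of all genes, with medians of 0.0, 0.0, 0.0 and 2.0. Skap1, beyond Hoxb1, had 3 endogenous and 7 Halo-Sox2D peaks, Hnrnpa3 2 and 6, Cbx1 2 and 5, Cbx5 0 and 6, and Snx10 3 and 1. Within 5 kb it was 2 and 5 for Skap1, 0 and 0 for Hnrnpa3, 0 and 2 for Cbx1, 0 and 3 for Cbx5. Snx10 kept 3 and 1. Not all of the list is adjacent to a cluster: Hnrnpa3 starts at chr2:75659105, far beyond the Hoxd end. Lnpk and Mtx2, which lie closer to Hoxd, had 0 peaks of each library. Some of the peaks at Ttll6 and Evx1, and those at Evx2, are also peaks of the Hox windows. Windows of adjacent genes overlap as well, so the counts are not separate events.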

How the data were processed

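The authors deposited 1 list of peaks per ChIP-exo library of D3 mouse embryonic stem cells, each with chromosome, start and end and no read number, score or height. Per the labels' protocols, complexes from sonicated nuclei were isolated with an antibody or on HaloLink resin. Bowtie2 and mm10 were used, per the submitters' processing notes. A list's length depends on the peak caller and its threshold, which, like the Bowtie2 version, are not named in the sources used here.

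Each peak was counted at its centre, against gene positions of RefSeq GRCm38.p6. Uniform placement multiplied a list's density on the 19 autosomes and X (2613 Mb from first to last gene or peak) by the window's length. Counts carry exact Poisson intervals and were the same with bedtools 2.31.1. The counting was tested on simulated data. Python 3.11.15, numpy 2.4.6, pandas 2.3.3 and scipy 1.17.1 were used. No test was run between libraries. The genes and lists were chosen with earlier results of these data known. Named were the Hox genes with a peak within 5 kb, every peak inside a cluster, flank peaks of more than 1 library, and up to 5 genes per other list with most peaks. Alternatives were other flanks, gene windows, joining distances and background densities. Motifs were searched in promoters only, since no genome was used here. The values of some genes of the lists are not reported here.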

Additional observations from a re-analysis of the deposited data

How the results depend on the processing

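Of 59 alternative values, 46 stayed within the error of the value reported and 13 did not. Among the 46 were 9 counts of peaks and 5 of genes for Halo-Sox2M. Its peak nearest to a cluster lay 375 kb away, so no window used could change them. With no flank the ratio of found to uniform for endogenous Sox2 was 0.0 in place of 1.72, though its own interval (0.0 to 2.88) includes 1.72. The other endogenous ratios ran from 1.18 to 2.08, those of Halo-Sox2 from 0.76 to 1.72 and those of Halo-Sox2D from 2.04 to 3.26. Halo-Sox2M stayed at 0.0. Numbers of Hox genes with a peak fell with the window. For endogenous Sox2 there were 6 at 50 kb, 2 at 5 kb, 2 at 20 kb, 17 at 100 kb and 3 by the gene nearest to each peak. For Halo-Sox2 there were 16 at 50 kb, 3 at 5 kb, 8 at 20 kb and 2 by nearest gene. For Halo-Sox2D there were 32 at 50 kb, 7 at 5 kb, 16 at 20 kb and 9 by nearest gene. Places held by more than 1 library numbered 1 at 500 bp, 0 by overlap of 1 bp and 3 at 1000 bp. Fewer genes are reached by a smaller window by construction; of the rest the cause was not tested. No paired analysis was possible because each group has 1 library. With 1 library per group, no read numbers and at most 13 peaks in the Hox windows, only numbers and places of peaks could be compared, and counting error limits them.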
